A study of Mus musculus with 6 samples.

Results

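The IL-1 and IL-33 cytokine receptor family comprised 9 genes, namely the receptors Il1rl1, Il1r1 and Il1r2, the co-receptor Il1rap, the ligands Il33, Il1a, Il1b and Il18, and the antagonist Il1rn. They were compared between E18.5 fetal and adult basal mouse mammary cells. The members were a named list, and they were picked with the difference between these fetal and adult samples already known, so their own values are given as a description and carry no test. The transcript accessions of the array's probes placed 12 probes in these 9 genes, out of 55681 probes and 20660 genes on the array.

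In this family a ligand binds its own receptor chain, and the pair then recruits the accessory chain encoded by Il1rap (for IL-1 and IL-33) or an IL-18-specific chain. The adaptor MyD88, IRAK kinases and TRAF6 pass the signal on to the transcription factor NF-kB. IL-33 is stored in the nucleus of epithelial and other barrier cells and is known as an alarm signal that is released on damage, whereas IL-1b and IL-18 are made as precursors that caspase-1 cuts. The family holds its own brakes in decoy receptors, secreted receptor forms, a binding protein and a receptor antagonist.

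All samples came from the mammary glands of female C57Bl6/J mice. The 3 fetal samples were EpCAM++CD49f+ cells of embryonic day 18.5, sorted as negative for CD31, CD45 and Ter119. The 3 adult basal samples were EpCAM+CD49f+ cells of animals 8 to 12 weeks old, sorted as negative for CD31, CD45, Ter119 and BP-1. Each was a freshly sorted biological replicate, and the number of animals behind a sample is not given in the sources used here. Fetal glands were digested briefly and adult glands overnight, and stromal cells were removed by BP-1 from the adult samples only, so that stage, digestion and sort cannot be told apart. RNA of each sample was labelled with Cy3 and hybridized to 1 one-color Agilent array. The labels describe the low-input Quick Amp kit and the methods a whole-transcript version of it, which leaves unsettled how evenly a transcript was copied along its length. On each array 76.37% to 83.33% of the probes gave a signal well above background and no spot saturated, and precision is limited by the number of arrays.

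Values are log2 normalized signals, where 1 unit is a 2-fold step, and differences are fetal minus adult basal. Signals of different probes are not compared, since probes bind with different strength. A probe was called when limma's Holm-adjusted p was at most 0.05 and the difference at least 2-fold, which held for 11.2% of the 15725 genes tested by 1 main probe each, 6.02% higher in fetal and 5.20% higher in adult basal cells. Exact permutation of 3 against 3 values has a smallest possible p of 0.10, so the calls depend on the variance that limma estimates jointly over probes. The gene lists below were also chosen with earlier results of these data known, so their counts are a description and not independent support.

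The 2 sorted populations differed in part of the basal and luminal marker genes. Of 11 basal marker genes, 7 were called, all higher in the adult basal cells, against 5.20% of all tested genes. Among them were the smooth muscle genes Acta2 (-4.07) and Myh11 (-8.63) and the keratin Krt5 (-3.90). Krt14 (-1.20, Holm-adjusted p = 1.00) and Trp63 (-0.08, Holm-adjusted p = 1.00), which also define basal cells, were not called. In the other direction, Lgr5 (2.64, Holm-adjusted p = 0.28) and Vim (1.15, Holm-adjusted p = 0.059) read higher on every fetal array. By Benjamini-Hochberg adjustment, which 29.7% of all tested genes passed, 7 of the list were higher in adult basal and 2, Lgr5 and Vim, in fetal cells. All 11 basal genes were well above background on all 6 arrays. Of 12 luminal marker genes, 11 were tested and 6 were called, all higher in the fetal cells, against 6.02% of all tested genes. They include the luminal regulators Elf5 (7.55) and Foxa1 (6.46). The luminal regulator Gata3 (0.15) and the keratin genes Krt8 (0.44) and Krt18 (0.58) were not called. By Benjamini-Hochberg adjustment 6 of the list were higher in fetal cells and 1, the keratin gene Krt19 (-1.22, Holm-adjusted p = 1.00), in adult basal cells. Of the hormone receptor genes, Pgr was among the called genes higher in fetal cells (2.13, Holm-adjusted p = 0.013). Prlr (-0.35, Holm-adjusted p = 1.00) and Esr1 (-1.06, too dim to be tested) read lower on every fetal array. Of the antigens used in the sort, Epcam was higher in fetal cells (1.88, Holm-adjusted p = 0.026), Itga6 (CD49f, 0.01) and Pecam1 (CD31, -0.14) were not called, and Enpep (BP-1) was undetected on all arrays. In these bulk samples, fewer cells of a type and less RNA per cell cannot be told apart.

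Of the 9 member genes, 6 had a main probe bright enough to be tested and 2 of these passed the call, Il1rl1 (higher in adult basal cells) and Il33 (higher in fetal cells). That count stands beside the 11.2% called among all tested genes, and nothing is read from it because the list was picked on this contrast. The other 3 genes, Il1r2, Il1a and Il1b, were too dim for the test. At the level of probes, 7 of 12 were tested, 3 were called, against 11.1% of all tested probes. The values of the groups were separate for 6 of the 7, against 69.0% of all tested probes. A signal well above background on all 6 arrays was found for 6 of the 12 probes, and on none for 2.

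**Figure D1:**
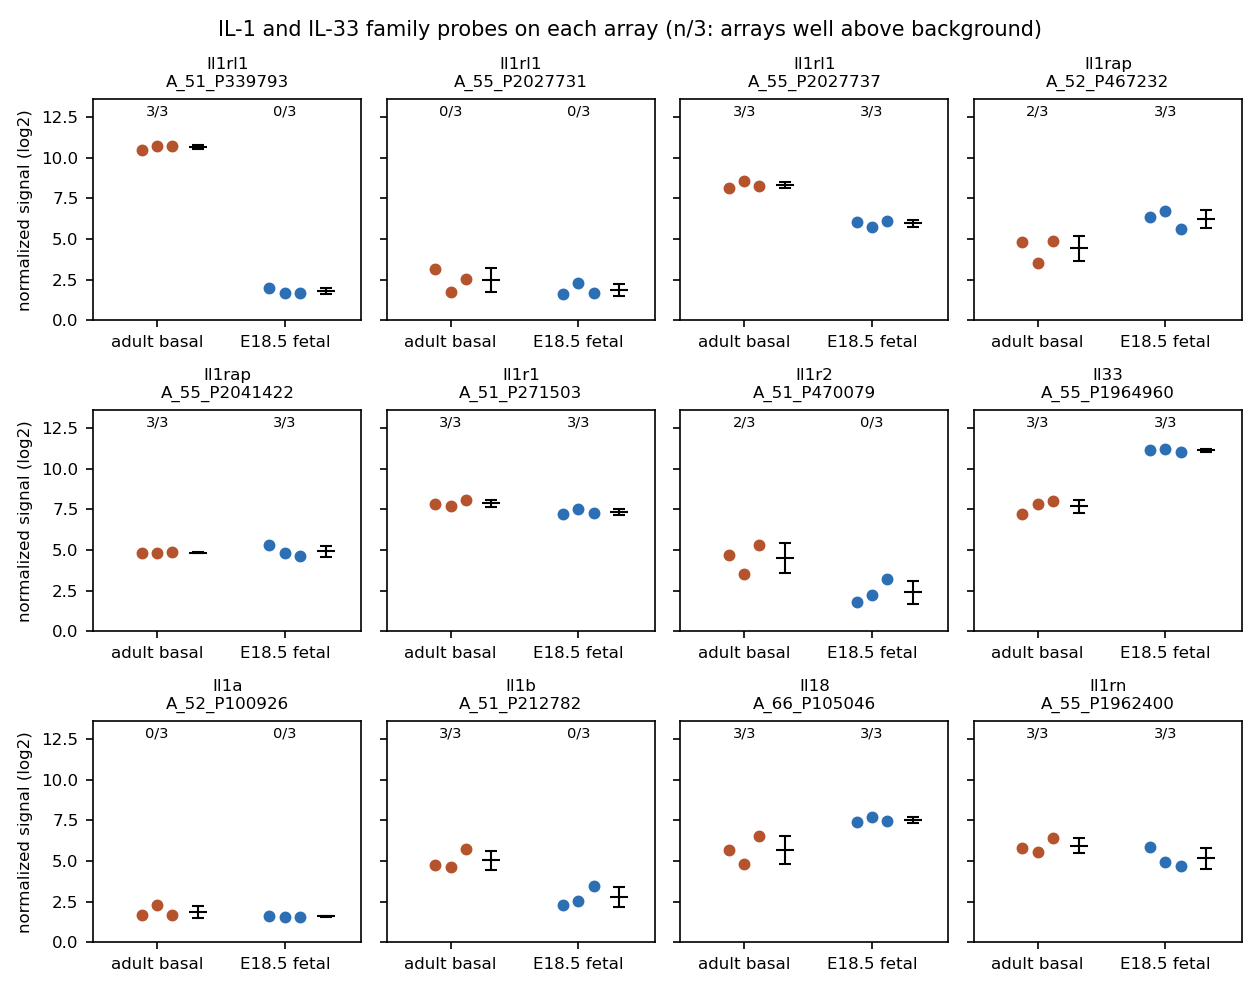
Log2 normalized signal of each of the 12 probes of the 9 genes on every array, with adult basal arrays in brown, E18.5 fetal arrays in blue, and the mean and SD (n = 3) beside each group. Probe A_51_P339793 is the secreted-form and A_55_P2027737 the main membrane-form probe of Il1rl1, and A_52_P467232 is the secreted-form probe of Il1rap. Fractions give the arrays well above background, and in fetal cells both detected Il1rl1 probes lie below, and Il33 above, every adult basal array.

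Il1rl1 encodes ST2, the receptor chain that binds IL-33, and it is made both as a membrane-spanning receptor and as a shorter secreted form that captures the ligand. Its probes are named here by the transcript form to which the array assigns them. Where on the transcript a probe binds was not checked, so a probe may also read sequence that both forms share, and the same holds for Il1rap below. The probe matched to the secreted form read 10.48, 10.69 and 10.72 in adult basal replicates 1, 2 and 3, and 2.02, 1.69 and 1.68 in fetal replicates 1, 2 and 3. Every adult basal array was bright, and no fetal array was well above background.

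The secreted-form probe of Il1rl1 was therefore set against a floor in the fetal cells. With the main values the adult basal signal was 116-fold above this floor, which is not a minimum under other treatments of background. The floor takes, on each array of the undetected group, the higher of the probe's own value and the dimmest signal of any probe that was well above background. The measured means were 10.63 ± 0.13 in adult basal and 1.80 ± 0.19 in fetal cells (SD, n = 3), a difference of -8.83 with a standard error of 0.13. That difference depends on how the dim fetal values are treated, since it was -6.36 with an offset of 16 added before log2 and -4.58 after a normexp background correction. It was -8.58 within one slide and -9.01 within the other.

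The Il1rl1 probe with the highest mean signal over the 6 arrays, matched to the membrane form, was well above background on all of them. It read 8.14, 8.54 and 8.27 in the adult basal cells and 6.07, 5.72 and 6.12 in the fetal cells. The groups did not overlap, and the fetal signal was 5.08-fold lower, a difference of -2.34 with a standard error of 0.16. Within the slides the difference was -2.13 and -2.62. A normexp correction gave -1.52, and averaging the gene's probes gave -3.93. A further probe for the same membrane transcript was well above background on none of the arrays, with values from 1.64 to 3.18, so 2 probes of 1 transcript disagree on whether it was detected at all. The detected probes differed in size but had the same sign under each of the alternatives run.

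Il33 encodes the ligand of ST2. Its probe read 7.20, 7.85 and 7.98 in adult basal replicates 1, 2 and 3 and 11.12, 11.23 and 11.04 in the fetal replicates. The fetal arrays lay close together and above all adult basal arrays, of which replicate 1 was the lowest. The means were 11.13 ± 0.09 and 7.68 ± 0.42 (SD, n = 3), a difference of 3.45 with a standard error of 0.21. The alternatives kept it between 3.13 and 3.61, and within the slides it was 3.53 and 3.28. The ligand and its receptor thus stood in opposite order in the 2 populations, a pairing that was known when the members were picked.

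For the ligand and the receptor that differed most, the 250 bases before each annotated start are shown to place the genes on the genome, from RefSeq on GRCm38.p6. Both genes have 2 annotated starts and lie on the plus strand. Capitals in Il1rl1 mark AGATAA, letters of the kind bound by GATA factors, on either strand (TTATCT is the reverse), and capitals in Il33 mark TATAAA. No NF-kB or AP-1 (TGANTCA) letters were found on either strand of these 4 windows.
Il1rl1 start 1, chr1:40429320-40429569: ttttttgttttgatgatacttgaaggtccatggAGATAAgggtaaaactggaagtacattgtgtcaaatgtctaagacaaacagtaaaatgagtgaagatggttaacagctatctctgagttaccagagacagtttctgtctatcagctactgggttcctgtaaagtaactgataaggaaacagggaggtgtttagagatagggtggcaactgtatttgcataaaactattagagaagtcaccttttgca
Il1rl1 start 2, chr1:40439379-40439628: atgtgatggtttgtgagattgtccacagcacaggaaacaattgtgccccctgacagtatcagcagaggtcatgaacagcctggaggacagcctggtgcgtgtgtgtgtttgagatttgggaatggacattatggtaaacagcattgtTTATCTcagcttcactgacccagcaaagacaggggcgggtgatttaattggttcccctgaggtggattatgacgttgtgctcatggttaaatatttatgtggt
Il33 start 1, chr19:29924863-29925112: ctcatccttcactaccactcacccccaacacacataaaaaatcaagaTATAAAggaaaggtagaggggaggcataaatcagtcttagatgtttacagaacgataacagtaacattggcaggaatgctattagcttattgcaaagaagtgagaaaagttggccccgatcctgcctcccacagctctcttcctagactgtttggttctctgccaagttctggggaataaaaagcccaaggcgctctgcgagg
Il33 start 2, chr19:29945540-29945789: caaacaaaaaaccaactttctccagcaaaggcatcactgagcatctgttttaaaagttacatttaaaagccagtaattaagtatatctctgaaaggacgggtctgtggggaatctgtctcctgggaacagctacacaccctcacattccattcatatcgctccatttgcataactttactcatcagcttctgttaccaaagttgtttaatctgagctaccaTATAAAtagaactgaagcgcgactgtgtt

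The last base of the AGATAA match lay 212 bases before Il1rl1 start 1, and that of its reverse 98 bases before start 2. The TATAAA match ended 198 bases before Il33 start 1 and 24 bases before start 2. Over 32851 promoter windows of this length, AGATAA was present in 9.99%, TATAAA in 12.4%, the NF-kB letters in 7.25% and TGANTCA in 6.75%. A match is a stretch of letters and not a measured binding site, and the absence of letters from these windows says nothing of the factor. The probes were not assigned to a start.

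The co-receptor Il1rap, which completes the receptors for IL-1 and IL-33, also has a membrane and a secreted transcript form. Its secreted-form probe read 4.82, 3.53 and 4.90 in adult basal cells and 6.34, 6.73 and 5.61 in fetal cells. All fetal values were above all adult basal values, and adult basal replicate 2 was not well above background. The difference was 1.81 with a standard error of 0.42, between 0.70 and 2.12 under the alternatives. The membrane-form probe read 4.84, 4.79 and 4.85 against 5.30, 4.81 and 4.66. Here the groups overlapped, the difference was 0.10, and the probe was too dim to be tested.

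Il1r1 encodes the signalling receptor for IL-1a and IL-1b. It read 7.81, 7.67 and 8.09 in adult basal cells and 7.20, 7.53 and 7.30 in fetal cells. The fetal values were lower without overlap, but the difference of -0.52 (standard error 0.15) was a 1.43-fold one, and the highest fetal array came close to the lowest adult basal array. Within the slides it was -0.75 and -0.26.

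Il1r2 encodes a decoy receptor that binds IL-1 without signalling. Its values were 4.67, 3.52 and 5.31 in adult basal cells and 1.79, 2.26 and 3.19 in fetal cells. Of these, 2 adult basal arrays and no fetal array were well above background. With the main values the adult basal signal, averaged over all adult basal arrays, was 1.65-fold above the floor. The probe was too dim to be tested. Its measured difference was -3.20 within one slide and -0.79 within the other. Over all arrays it was -2.09, which shrank to -0.48 after the normexp correction.

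Among the other ligands, Il18 was higher in the fetal cells and Il1b in the adult basal cells, and Il1a was not detected. Il18, whose product acts on lymphocytes after cleavage by caspase-1, read 5.68, 4.84 and 6.55 in adult basal cells and 7.38, 7.72 and 7.43 in fetal cells. The fetal arrays lay close together (SD 0.18) and the adult basal arrays spread widely (SD 0.85), and the difference of 1.82 had a standard error of 0.39. Across the alternatives it ran from 1.06 to 2.25, and it was 1.27 and 2.73 within the slides.

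Il1b, the ligand secreted mainly by activated myeloid cells, read 4.74, 4.65 and 5.72 in adult basal cells and 2.29, 2.55 and 3.49 in fetal cells. All adult basal arrays and no fetal array were well above background, and adult basal replicate 3 was the highest. With the main values the adult basal signal was 2.4-fold above the floor on this dim, untested probe. The measured difference of -2.26 became -0.48 after the normexp correction. Il1a, which encodes the ligand active without cleavage, stayed between 1.58 and 2.30 and was well above background on none of the arrays.

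Il1rn encodes the antagonist that occupies the IL-1 receptor without signalling. It read 5.77, 5.58 and 6.44 in adult basal cells and 5.85, 4.94 and 4.67 in fetal cells. The groups overlapped through fetal replicate 1, and the difference of -0.78 had a standard error of 0.34.

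**Figure D2:**
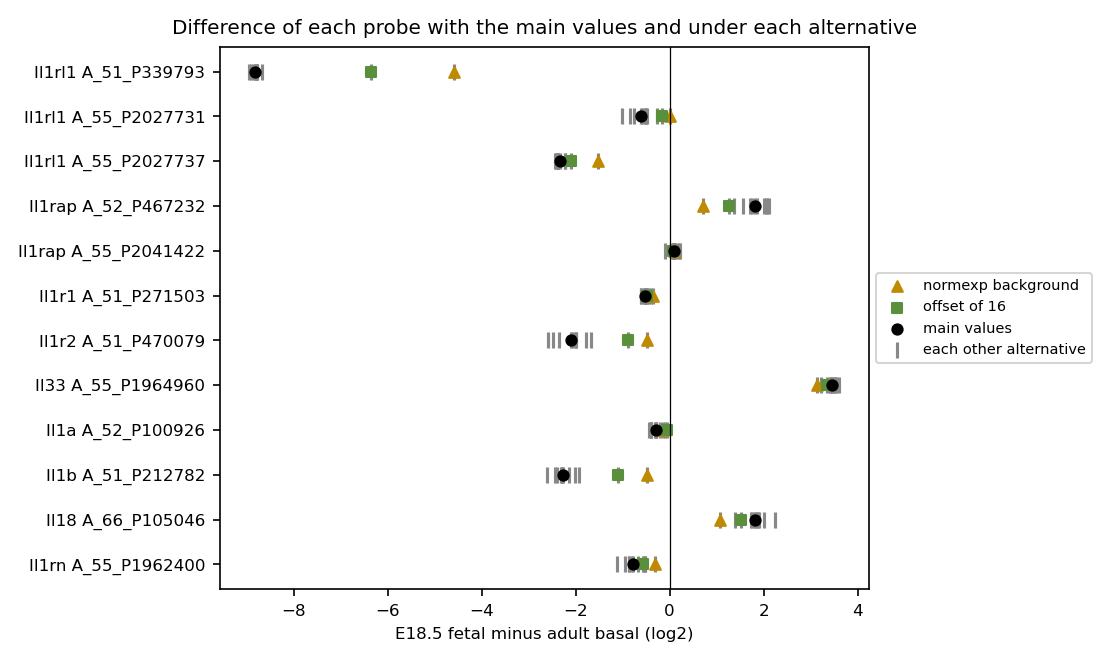
Difference of each member probe (E18.5 fetal minus adult basal, log2) with the main values as a black point, the normexp correction as a triangle, an offset of 16 as a square, and each further alternative applied to that probe as a grey tick. Il33 stays between 3.13 and 3.61, whereas the secreted-form probe of Il1rl1 spans -8.94 to -4.58 and its fetal signal is near background.

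Of the other 12 genes of the wider family, 4 were well above background on all 6 arrays and 3 on none. Only 3 of the 12 were bright enough to be tested, and 0 were called by limma with Holm adjustment, while 1, Il18bp, passed with Benjamini-Hochberg adjustment. By that adjustment 29.7% of all tested genes passed, 15.8% higher in fetal and 13.9% higher in adult basal cells. Il18bp, which encodes the protein that binds and neutralizes IL-18, read 9.28, 8.54 and 9.27 in adult basal cells and 7.79, 7.89 and 7.38 in fetal cells (-1.34, standard error 0.24, Holm-adjusted p = 1.00, Benjamini-Hochberg-adjusted p = 0.0018). Its groups did not overlap, and its direction was opposite to that of Il18. Sigirr, an inhibitory receptor of the family, was 7.84, 7.93 and 7.62 against 8.67, 8.87 and 8.81 (0.99, Benjamini-Hochberg-adjusted p = 0.00027), just short of a 2-fold difference. Il1f10 differed by -0.36 (Benjamini-Hochberg-adjusted p = 0.031). All 3 tested genes had an unadjusted p under 0.05, and the other 9 were too dim to enter the fit.

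The ligands of the IL-36 branch and their antagonist were at the edge of detection in these sorted cells. Il36a and Il36g were well above background on none of the arrays, Il36b and the antagonist Il36rn were so on 1 fetal array each, and the IL-36 receptor gene Il1rl2 read 5.25, 5.11 and 5.57 against 4.64, 4.91 and 4.22. Neither IL-18 receptor chain was bright enough to be tested. The brighter probe of Il18r1 was well above background on 1 fetal array and on no adult basal array, and Il18rap was well above background on all 6 arrays, between 4.55 and 5.43 and with overlap. Of the brain-associated receptors, Il1rapl1 was well above background on 1 adult basal and 3 fetal arrays, and Il1rapl2 on none.

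Il1r2, Il1r1, Il1rl2, Il1rl1, Il18r1 and Il18rap follow each other in this order on mouse chromosome 1 in the RefSeq gene table. The receptor genes of this cluster did not share 1 pattern. Il1rl1 and its neighbours Il1rl2, Il1r1 and Il1r2 had the higher mean signal in the adult basal cells, whereas Il18r1, on the other side of Il1rl1, was near background and its 2 probes differed in sign (0.78 and -0.44). Gm16894, the gene beside Il1r2, differed by -0.01. On chromosome 2, Il1rn lies between Il1f10 and Psd4 (-0.19, Holm-adjusted p = 1.00). Il1a and Il1b lie side by side between Ckap2l and Il1bos, a noncoding RNA gene opposite Il1b that was well above background on none of the arrays. Ckap2l, a mitotic spindle gene, read 2.87, 5.22 and 4.78 in adult basal and 9.44, 9.48 and 9.45 in fetal cells (5.17, standard error 0.54, Holm-adjusted p = 0.42).

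**Figure D3:**
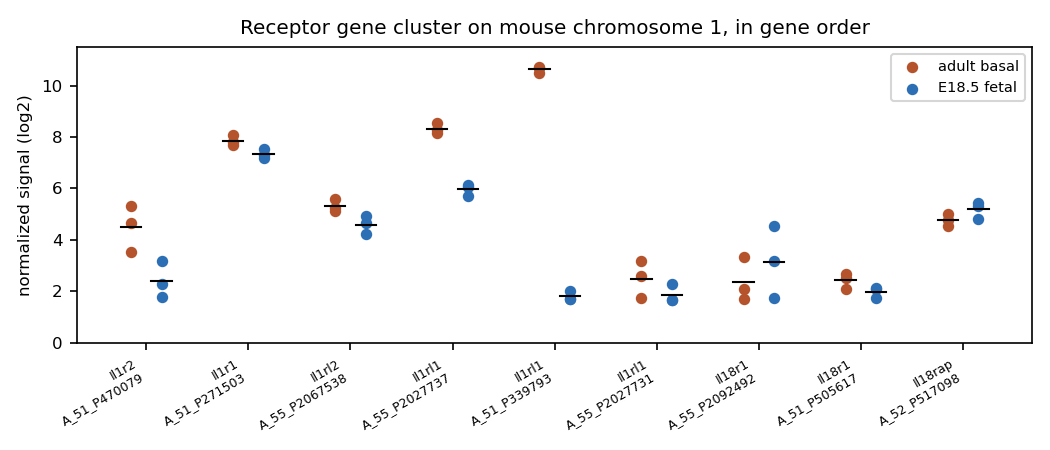
Log2 normalized signal on every array for the probes of the receptor cluster on mouse chromosome 1, in gene order from left to right, with adult basal arrays in brown, E18.5 fetal arrays in blue and the mean of each group (n = 3) as a line. The secreted-form probe of Il1rl1 stands out at 10.63 against 1.80, while its neighbour Il18r1 is near background on most arrays.

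Downstream of the receptors, the adaptor and kinase genes were detected in both populations. All 32 signalling genes were tested, and 3 were called, against 11.2% of all tested genes, 2 higher in fetal and 1 in adult basal cells. The median difference of the list was -0.10, beside -0.04 over all tested genes. The core of the pathway was not called. Myd88 differed by -0.66, Irak1 by -0.20, Irak2 by 0.05, Irak4 by -0.80, Traf6 by -0.22, Map3k7 (the kinase TAK1) by 0.83, Nfkb1 by -0.09 and Rela by 0.57, each with a Holm-adjusted p of 1.00. The Benjamini-Hochberg-adjusted p was 0.00027 for Map3k7, 0.0062 for Irak4, 0.011 for Rela and 0.016 for Myd88, all short of a 2-fold difference. For the other core genes it was 0.083 to 0.67.

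The called genes were Nfkbia, Nfkbiz and Irak3. Nfkbia, the inhibitor that holds NF-kB in the cytoplasm and is itself induced by it, read 13.49, 13.09 and 13.46 in adult basal and 15.30, 15.60 and 15.42 in fetal cells, a rise of 2.10 (standard error 0.15, Holm-adjusted p = 0.027). Nfkbiz, a nuclear cofactor of NF-kB, rose by 2.08 (standard error 0.13, Holm-adjusted p = 0.017), from 8.35, 8.69 and 8.57 to 10.52, 10.80 and 10.53. Irak3, a brake on IRAK signalling best known from macrophages, was lower in fetal cells, with 5.84, 5.83 and 5.68 against 8.09, 7.85 and 8.24 (-2.28, standard error 0.13, Holm-adjusted p = 0.0066). None of the 3 genes overlapped between the groups, which also held for 69.0% of all tested probes.

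These 3 calls were close to the threshold. Irak3 lost its call without adult basal replicate 1 or without any 1 fetal replicate (Holm-adjusted p between 0.092 and 0.12), and Nfkbia and Nfkbiz lost theirs without adult basal replicate 1 or 3 or any 1 fetal replicate (between 0.17 and 0.33, and between 0.10 and 0.21). With slide as a block only Irak3 passed (0.020, against 0.13 for Nfkbia and 0.059 for Nfkbiz), and without the low-signal filter none did. With replicate number as a block none passed either (0.10 for Irak3, 0.34 for Nfkbia and 0.056 for Nfkbiz). Nfkbia also missed the threshold when probes without a matched gene entered the adjustment (0.068). The direction held throughout, and the difference of Irak3 was -1.55 after the normexp correction. By Benjamini-Hochberg adjustment 8 of the 32 genes passed, against 29.7% of all tested genes, and 6 of them were higher in fetal cells, against 15.8%. These include Tnfaip3, which encodes the NF-kB inhibitor A20 (1.64, Holm-adjusted p = 0.56), and Rel (Holm-adjusted p = 0.71). Rel was well above background on no adult basal array, and its fetal signal was 5.36-fold above the floor with the main values.

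Among the genes that mature and release the ligands, those encoding the inflammatory caspases were lower in fetal cells. Of 23 genes 20 were tested, and 3 were called, against 11.2% of all tested genes. All 3 were higher in adult basal cells, against 5.20% of all tested genes, and the list median was -0.17. Casp1, whose protease cuts IL-1b and IL-18 to their active forms, read 11.07, 10.82 and 11.08 in adult basal and 5.70, 6.45 and 6.05 in fetal cells. The groups were far apart, the fetal signal being 30.3-fold lower (-4.92, standard error 0.20, Holm-adjusted p = 0.00057). Casp4, which encodes the mouse protease caspase-11 that senses lipopolysaccharide in the cytoplasm, read 11.97, 11.75 and 11.98 against 8.58, 8.67 and 8.21 (-3.41, standard error 0.15, Holm-adjusted p = 0.0011). The normexp correction gave a smaller difference for Casp1, -3.95. Casp1 passed under each of the 17 alternatives run for it, and Casp4 under each of 18.

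P2rx7, the ATP-gated channel that triggers the inflammasome, was also lower in fetal cells, with 9.01, 9.22 and 8.75 against 11.59, 11.58 and 12.12 (-2.77, standard error 0.19, Holm-adjusted p = 0.025). Its call ended with slide (0.12) or replicate number (0.26) as a block, without the low-signal filter (0.20) and with unmatched probes included (0.061). It also ended without any 1 array other than adult basal replicate 3 (0.064 to 0.39). Other parts of the machinery were not called. The adaptor Pycard differed by 1.14 (Holm-adjusted p = 1.00), the pore former Gsdmd by -1.31 (Holm-adjusted p = 1.00), Nlrp1a by 2.35 (Holm-adjusted p = 0.17) and the sensor Nlrp3 by -0.14 (Holm-adjusted p = 1.00). Nlrc4 and Aim2 were well above background on none of the arrays. Of the 20 tested genes 8 passed with Benjamini-Hochberg adjustment, against 29.7% of all tested genes, and 4 were higher in each population.

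Genes that IL-1 and NF-kB are known to induce moved in both directions. Of 28 such genes 23 were tested and 5 were called, against 11.2% of all tested genes. Of the 5, 3 were higher in fetal and 2 in adult basal cells, against 6.02% and 5.20% of all tested genes, and the list median was -0.07. By Benjamini-Hochberg adjustment 12 of the 23 passed, against 29.7% of all tested genes, 5 higher in fetal and 7 in adult basal cells. The fetal cells were higher for the neutrophil chemokines Cxcl1 and Cxcl2 and for the cytokine Tnf. Cxcl1 read 10.98, 10.96 and 10.85 in adult basal and 14.53, 14.33 and 14.66 in fetal cells (3.57, standard error 0.12, Holm-adjusted p = 0.00015), and kept its call under all 17 alternatives. Tnf read 6.03, 5.82 and 5.85 against 9.18, 9.80 and 9.95 (3.74, standard error 0.20, Holm-adjusted p = 0.0049). Cxcl2 read 6.45, 5.82 and 6.37 against 9.69, 9.80 and 9.65 (3.49, standard error 0.18, Holm-adjusted p = 0.003).

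The adult basal cells were higher for Mmp3, the matrix protease stromelysin, and for Vcam1, an adhesion molecule for leukocytes. Mmp3 read 9.85, 9.86 and 10.37 in adult basal cells, while no fetal array was well above background for it (Holm-adjusted p = 0.0048). Its adult basal signal was 76.2-fold above the floor with the main values. The measured difference of -7.47 depends on the treatment of background, as for Il1rl1, since it was -5.56 with an offset of 16 and -3.92 after the normexp correction. Vcam1 read 12.26, 11.26 and 11.46 against 8.08, 8.00 and 8.09 (-3.61, standard error 0.24, Holm-adjusted p = 0.023). Several chemokine and acute-phase genes had large but uneven differences that were not called, among them Ccl7 (-5.43, standard error 0.50, Holm-adjusted p = 0.18) and Saa3 (-5.32, standard error 0.47, Holm-adjusted p = 0.14). Il6 (-1.69, Holm-adjusted p = 1.00), Ptgs2 (-0.04, Holm-adjusted p = 1.00) and Icam1 (-0.03, Holm-adjusted p = 1.00) were not called either.

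The calls of 4 of these 5 induced genes did not hold when certain arrays were left out. Cxcl2 was not called without fetal replicate 1 or 2 (Holm-adjusted p 0.056 to 0.068), Tnf without adult basal replicate 1 or 3 or fetal replicate 2 (0.061 to 0.076), Mmp3 without adult basal replicate 1 or 3 or fetal replicate 3 (0.050 to 0.081), and Vcam1 without adult basal replicate 3 or any 1 fetal replicate (0.15 to 0.36). Vcam1 was also not called with slide as a block (0.077) or with unmatched probes included (0.057), and Tnf, Mmp3 and Vcam1 were not called without the low-signal filter (0.053, 0.058 and 0.20). The normexp correction lowered the differences of Cxcl2 and Tnf to 2.72 and 2.80. The digestion time differed between the populations, and its part in the values of these genes cannot be told apart from that of stage.

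**Figure D4:**
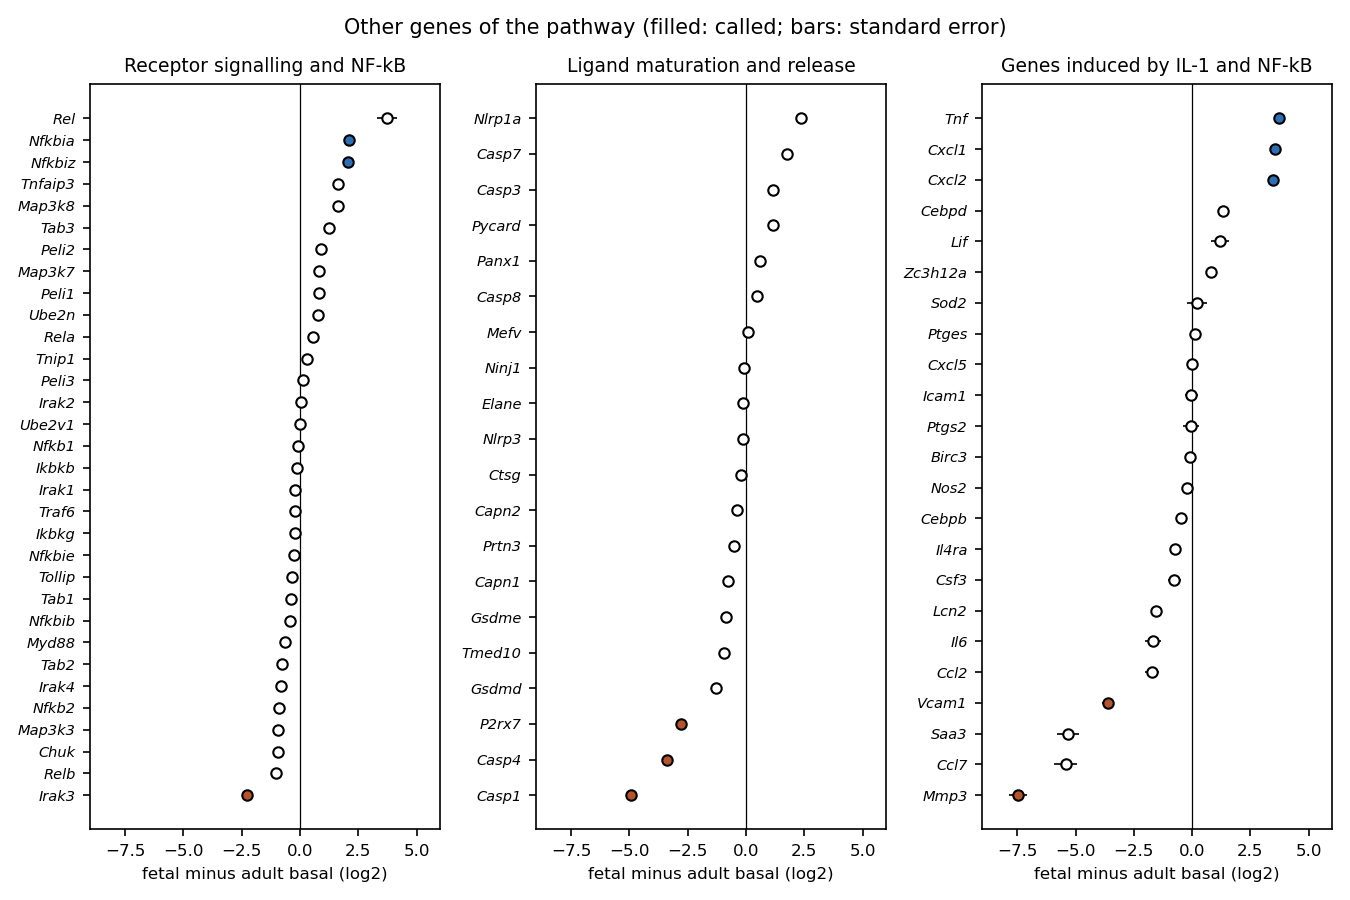
Difference (E18.5 fetal minus adult basal, log2) of each tested gene in 3 groups of the pathway, with the standard error as a bar and called genes filled, blue when higher in fetal and brown when higher in adult basal cells. Mmp3 (-7.47, where the fetal signal is not well above background), Casp1 (-4.92) and Casp4 (-3.41) lie on the adult basal side with Ccl7 (-5.43) and Saa3 (-5.32), which were not called, and Cxcl1, Cxcl2 and Tnf lie between 3.49 and 3.74.

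Il1rl1, Il1b and their relatives are also expressed by immune and stromal cells, so markers of such cells were read on the same arrays. Of 10 mast cell genes 9 had a probe, 5 were tested and 0 were called by limma with Holm adjustment, 1 passing with Benjamini-Hochberg adjustment, against 29.7% of all tested genes, and 1 having an unadjusted p under 0.05. The defining receptor genes Fcer1a and Ms4a2 were well above background on none of the arrays. The mast cell protease Cpa3 read 3.95, 3.87 and 3.88 in adult basal and 5.90, 5.92 and 8.54 in fetal cells, so fetal replicate 3 stood above the rest. Mcpt4 (8.81), Cma1 (6.36) and Hdc (7.59) were also highest on that array. Tpsb2 was lowest there (10.79), and Mrgprb1 and Gata2 were highest on other arrays. The summed signal of the main probes, on a linear scale, was 3169, 3270 and 3566 in adult basal and 2952, 3038 and 3099 in fetal cells. Such a sum follows the brightest probe of its list, here that of Tpsb2, whatever the abundance of the genes. Genes of T cells and group 2 innate lymphoid cells, which also carry ST2, gave 0 limma calls with Holm adjustment among 6 tested, 3 with Benjamini-Hochberg adjustment (2 higher in adult basal and 1 in fetal cells), against 29.7% of all tested genes, and 4 with an unadjusted p under 0.05. On the adult basal side lay Rora (-2.69, Holm-adjusted p = 0.13), Thy1 (-1.62, Holm-adjusted p = 1.00), which is also in the fibroblast list, and Il7r, which was well above background on 2 adult basal arrays and no fetal array. Areg was higher on the fetal arrays (2.30, Holm-adjusted p = 1.00). Cd3g and Il13 were well above background on none of the arrays, and the sums, led by the probe of Cd3e (-0.05), were 9055, 11373 and 10216 against 7098, 5746 and 6567. Mast cells and lymphoid cells carry CD45, and both populations were sorted as CD45 negative. The part of any such cells left after the sort in the values of Il1rl1 was not tested.

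Of 10 fibroblast genes 9 were tested and Dcn was called, with 13.04, 13.39 and 13.72 in adult basal and 9.50, 9.54 and 9.78 in fetal cells (-3.78, Holm-adjusted p = 0.0023). This 1 gene of 9 stands beside the 11.2% called among all tested genes. By Benjamini-Hochberg adjustment 3 of the 9 passed, all higher in adult basal cells, beside 29.7% of all tested genes. Beside Dcn, these were Thy1 (-1.62) and Lum (-1.05). The list median was -0.90, and 8 of the 9 had an unadjusted p under 0.05. Col1a2 (-0.90), Col3a1 (-0.89), Fap (-0.97), Pdgfra (-0.37), Col1a1 (-0.01) and Pdpn (0.48) were not called, Dpt was well above background on 3 adult basal arrays and no fetal array, and the summed signal, led by the probe of Pdpn, was 29381, 30295 and 36097 in adult basal and 19199, 18917 and 21820 in fetal cells. Both populations were sorted as EpCAM positive, and the adult basal cells also as negative for BP-1. The part of any fibroblasts left after the sort in the values of Il1rl1, Casp1 and Mmp3 was not tested.

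Of 11 myeloid genes 10 had a probe, 9 were tested, 0 were called by limma with Holm adjustment and 3 with Benjamini-Hochberg adjustment, all higher in adult basal cells, against 13.9% of all tested genes, and 4 had an unadjusted p under 0.05. Tyrobp read 7.82, 7.16 and 9.64 in adult basal and 5.03, 5.17 and 6.01 in fetal cells, Fcgr1 6.69, 6.50 and 8.56 against 4.43, 4.25 and 5.09, and Lyz2 6.26, 5.61 and 7.95 against 4.99, 4.50 and 5.05. Adult basal replicate 3 was the highest of the 6 arrays for each of these genes and for Adgre1 (-0.42). Among the other myeloid genes it was not the highest for S100a9 (0.97), S100a8 (-0.73), Cx3cr1 (-0.41), Ptprc, Csf1r and Itgam. The same array was the highest for Il1b, Il1r2, Il1r1 and Il1rn. It was also the highest for the secreted-form Il1rl1 probe, but only at 10.72 against 10.69 in adult basal replicate 2. The main Il1rl1 probe was highest in adult basal replicate 2 (8.54). Both populations were sorted as CD45 negative, and the part of any myeloid cells left after the sort in those values was not tested. Ptprc, which encodes CD45, differed by -0.31 (Holm-adjusted p = 1.00), and the sums of the list, led by the probes of Itgam (0.24) and Csf1r (-0.06), were 20252, 29518 and 24390 against 30028, 25432 and 21976. Of 8 endothelial genes 6 were tested and 0 were called by limma with Holm adjustment, while 4 passed with Benjamini-Hochberg adjustment, all higher in adult basal cells, against 13.9% of all tested genes, and 4 had an unadjusted p under 0.05. Of 8 epidermal genes 5 were tested and 1, Krt10, was called, against 11.2% of all tested genes. Its signal was higher in fetal cells (1.47, Holm-adjusted p = 0.022). By Benjamini-Hochberg adjustment 3 of the 5 passed, against 29.7% of all tested genes, all higher in fetal cells. Beside Krt10, these were Krt1 (1.95) and Krt6a (2.09). Sprr1a (-0.02) and Lor (0.87) were not called. Ivl and Dsg1a, each well above background on 1 fetal array only, were too dim to be tested, and Flg had no probe. The list median was 1.47, and 4 had an unadjusted p under 0.05.

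The genes whose profile over the 6 arrays lay nearest to that of the main Il1rl1 probe, after each probe's mean was removed, were Frmd6, Dlc1, Got1, Clmp and Slc7a1, at distances of 0.19, 0.23, 0.30, 0.31 and 0.32 log2 units. Nearest to the secreted-form Il1rl1 probe, at 0.61, 0.93, 1.23, 1.47 and 1.63, were Myh11, Slc41a2, Postn, Cacna2d1 and Synm. Those nearest to Il33 were Sorbs2, H4c14, Neil3, Plcb4 and H4c4, at 0.29, 0.29, 0.30, 0.30 and 0.34. H4c14 and H4c4 are histone genes and Neil3 encodes a DNA glycosylase. These distances describe 6 arrays in 2 groups, in which any genes with a like difference come close together.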

How the data were processed

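For 3 samples of E18.5 fetal and 3 of adult basal mammary cells, RNA was measured on 6 one-color arrays, grouped by the sample labels. The spot intensity deposited by the authors is the green processed signal of Agilent Feature Extraction 11.0.1.1, named in the submitters' processing notes, which is background subtracted and not normalized between arrays. The authors also deposited log2 values that they quantile normalized in GeneSpring, used here only as an alternative. All deposited sample columns were used.

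Here, control spots and outlier spots (104 to 326 an array) were left out, a probe's spots were averaged on the log2 scale, and quantile normalization was applied over the 6 arrays. The files carry no gene names, so unversioned transcript accessions were matched to a RefSeq table of GRCm38.p6, which named 27235 of 55681 probes (48.9%) as 20660 genes. Its coordinates served for promoter sequences and gene order only, since the array was designed on another assembly. Neighbours are the nearest genes with a probe. Probes in the lowest of 3 k-means clusters (100 starts, seed 1) in each population were dropped, leaving 20448 for the test. limma 3.58.1 (lmFit, eBayes; R 4.3.3) gave the differences, with p-values Holm adjusted over all tested probes, as in the study's methods. The probe with the highest mean was a gene's main probe. Python 3.11.15, pandas 2.3.3, numpy 2.4.6 and matplotlib 3.10.9 served for tables and plots, and the fit was tested on simulated data.

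The members and all lists were chosen with earlier results of these data known. Genes were named by a rule: all members and other family genes, the core signalling genes, up to 4 called genes per direction of each pathway list, chromosome neighbours, the 5 nearest profiles, discussed markers and the sort antigens. Genes named outside it as examples of values that were not called (such as Tnfaip3, Rel, Nlrp1a, Ccl7 and Saa3) were chosen after their values were seen.

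The alternatives were scaling to the 75th percentile, the deposited log2 values, normexp (offset 50, run on median spot intensity), omission of the low-signal filter, its replacement by a filter on detection, inclusion of unmatched probes, Benjamini-Hochberg adjustment, a variance trend with robust estimation, an offset of 16, the mean of a gene's probes, each array left out, and replicate number or slide as a block. Slide 1 held adult basal replicates 1 and 3 and fetal replicate 1, and slide 2 the others. The arrays of a slide shared a scan group.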

Additional observations from a re-analysis of the deposited data

How the results depend on the processing

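Of 20448 probes, 2270 were called, and 6133 with Benjamini-Hochberg adjustment, 1182 without the low-signal filter and 945 to 1981 with 1 array left out. Called signalling genes went from 3 to 0 without the filter, 8 with Benjamini-Hochberg adjustment, 1 with slide as a block and 0 to 3 with 1 array left out. Called ligand maturation genes went from 3 to 8 with Benjamini-Hochberg adjustment and were 2 to 4 with 1 array left out. Called induced genes went from 5 to 2 without the filter, 12 with Benjamini-Hochberg adjustment and 2 to 6 with 1 array left out. Other family genes went from 0 to 1 with Benjamini-Hochberg adjustment. The cause of these changes was not tested.

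Same-numbered fetal and adult basal arrays did not deviate together (correlations of -0.032, 0.093 and 0.049), so the numbers were not taken to pair the samples. With the replicate number as a block, 1302 probes, 0 signalling genes, 2 ligand maturation genes, 6 induced genes and 0 other family genes were called. Of the called pathway genes, those no longer called with it were Irak3, Nfkbia, Nfkbiz and P2rx7 (Holm-adjusted p = 0.10, 0.34, 0.056 and 0.26). The differences of Il1rl1 (main probe -2.34) and Il33 (3.45) had the same value with the block.

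The member probes kept their sign under each alternative run except 2, the membrane-form Il1rap probe (-0.09 to 0.23) and the undetected Il1rl1 probe, whose difference vanished after the normexp correction (-0.00). Low signal limits Il1r2, Il1b, Il1a and the fetal levels of Mmp3 and the secreted-form Il1rl1 probe, whose sizes follow the treatment of background.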
